A study of Homo sapiens with 6 samples.

Results

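The 10 genes described here control how much mitochondrial machinery a cell makes. They were chosen by name, with earlier results of these data known. They are the rows of the deposited table whose symbol is PPARGC1A, PPARGC1B, PPRC1, ESRRA, NRF1, GABPA, TFAM, TFB2M, POLG or POLRMT. All 10 were found among the 61806 genes of the table, and all 10 passed the filter on low values, a mean of at least 0.5 FPKM (reads scaled to the length of the gene and to the total count of the library), which left 15870 genes for testing. Total RNA of U87-MG, an established human glioblastoma line, had been sequenced in 3 negative control (NC) libraries, with the genotype given as wildtype, and in 3 libraries labelled GRIK1 siRNA, with the genotype given as GRIK1 knockdown. The methods describe lipid transfection of siRNA, whereas the design text names an shRNA. The study designed 3 siRNA sequences against GRIK1, numbered 1 to 3 under the same names as the titles of the knockdown libraries, and went on with sequence 1 in its later experiments. Whether these libraries are replicates of 1 sequence or 1 library for each of the 3 is not given in the sources used here, nor is the time of harvest, so the spread of this group may include differences between sequences. Nothing in the labels says that the libraries of a group came from separate cultures, so the p-values measure only the spread between these libraries, which may be technical.

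PGC-1α (PPARGC1A) and its relatives PGC-1β (PPARGC1B) and PRC (PPRC1) are coactivators. They do not bind DNA themselves but dock on transcription factors, among them the orphan nuclear receptor ERRα (ESRRA), nuclear respiratory factor 1 (NRF1) and the ETS factor GABPα (GABPA). These factors switch on nuclear genes for respiration and for the upkeep of the mitochondrial genome. TFAM packages mitochondrial DNA and, with TFB2M and the RNA polymerase POLRMT, starts its transcription, while POLG is the catalytic subunit of the polymerase that copies it. PGC-1α is known as the most inducible of the coactivators, responding to cyclic AMP, AMPK and energy demand.

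The knockdown was checked first on its own target, which had the higher counts in the labelled group. GRIK1 had 18, 9 and 8 counts in NC libraries 1, 2 and 3 against 15, 20 and 20 in those labelled GRIK1 siRNA. Scaled to total counts, the summed counts gave 1.49 times the NC level, with a 95% interval of 0.958 to 2.35, which includes no error other than that of counting. A lower level of GRIK1 is therefore not seen in these libraries, which are called by their label throughout. GRIK1 was near the floor, with a mean of 0.287 FPKM, and did not pass the filter for testing. The study itself reports that GRIK1 was knocked down efficiently in U87-MG cells. The total counts lay between 11099909 and 14006968, and NC library 3 stood apart. Its correlations across genes with the other libraries were 0.952 to 0.968, against 0.980 to 0.992 for the other pairs, and 9.37% of its counts lay on ribosomal protein genes, against 4.79% to 5.50%. The results for the 10 genes are given with and without it. VIM and CD44, both high in mesenchymal glioma, had mean levels of 1001 and 61.4 FPKM, but 5 of 10 glioma and astroglial markers were below 0.5 FPKM, with GFAP and SOX2 near 0 and AQP4 at 0.

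Promoter windows from RefSeq (GRCh38.p14, 250 bases before to 50 bases after a start site) were found for 9 of the 10 genes. The letters bound by NRF1 (GCNTGCGC, either strand) stood in windows of 4 members, ESRRA, TFAM, TFB2M and POLRMT, whereas 11.98% of all 35116 windows hold them. The letters of the GABP site (CCGGAAG, either strand) stood in the windows of GABPA itself and of POLRMT, against 10.3% of all windows. No member window held the ERR letters AAGGTCA (3.92% of all windows) or the cyclic AMP response element TGACGTCA (1.85%), and the YY1 letters AAGATGGC (2.89%) stood in that of PPRC1. The 2 windows of PPARGC1A held none of the 5 motifs. The start site of 1 (24472905) lies outside the span of the gene, 568816 bases from the nearest annotated start. The other (23881101) lies inside the span, whose upstream end is 23904089, and 191 bases from the nearest annotated start. PPARGC1A has 18 annotated transcripts, and which start these cells use was not tested. Windows at its other starts were not searched, so a cyclic AMP response element elsewhere in its promoters is not excluded. A match is a description of the letters, not a site shown to be used. The 30 bases around 1 match to the NRF1 or GABP letters in each of these genes follow, each on the strand of its gene. Matched letters (including overlapping matches) are in capitals, and they are alike because they were searched for.
ESRRA, NRF1 letters, chr11:64305484-64305513, plus strand: ccccctgctttGCATGCGCacggccggccc
TFAM, NRF1 letters, chr10:58385338-58385367, plus strand: cgctctcccgcGCCTGCGCcaattccgccc
TFB2M, NRF1 letters, chr1:246566258-246566287, minus strand: ctccgctgttcGCATGCGCAGGCtctagtg
POLRMT, NRF1 letters, chr19:633543-633572, minus strand: aggcggcgcggGCGCATGCGCAGGCgcggg
POLRMT, GABP letters, chr19:633613-633642, minus strand: cctgggagtctaCTTCCGGctggggtttcc
GABPA, GABP letters, chr21:25734894-25734923, plus strand: acctccgctctaCTTCCGGccctggctccg

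The coactivator PPARGC1A and its partner receptor ESRRA were lower in the group labelled GRIK1 siRNA, while the other 8 regulators did not pass the test. PPARGC1A, at 0.426 of its NC level, was the 1 member of 10 that was called, which in edgeR required both an adjusted p under 0.05 and more than 1 log2 unit of difference. Of all 15870 genes tested, 1.41% were called, and 0.542% were called lower. ESRRA, at 0.576 of its NC level, passed the adjusted p but not the fold threshold. That made 2 of 10 members with an adjusted p under 0.05, against 3.09% of all genes. The members were chosen with earlier results of these data known, so setting their share beside that of all genes is not a test of the set. With NC library 3 left out, PPARGC1A was again the 1 member called (3.09% of all genes), and 5 of 10 members had an adjusted p under 0.05 (35.2% of all genes). PPARGC1A, ESRRA and TFAM were then lower (18.3% of all genes) and PPRC1 and POLG higher (16.9%). Markers of another cell type moved with the groups, since summed leukocyte markers lay at 2.11 to 3.22 FPKM in NC and 3.47 to 4.07 FPKM in the group labelled GRIK1 siRNA. This sum is nearly all CD68, a lysosomal protein with a mean of 3.27 FPKM, while PTPRC was at 0.0117 FPKM and CD3E was at 0. The ribosomal protein share was also lower in each library labelled GRIK1 siRNA (4.79% to 4.86%) than in each NC library. The part of either in the results was not tested.

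**Figure D1:**
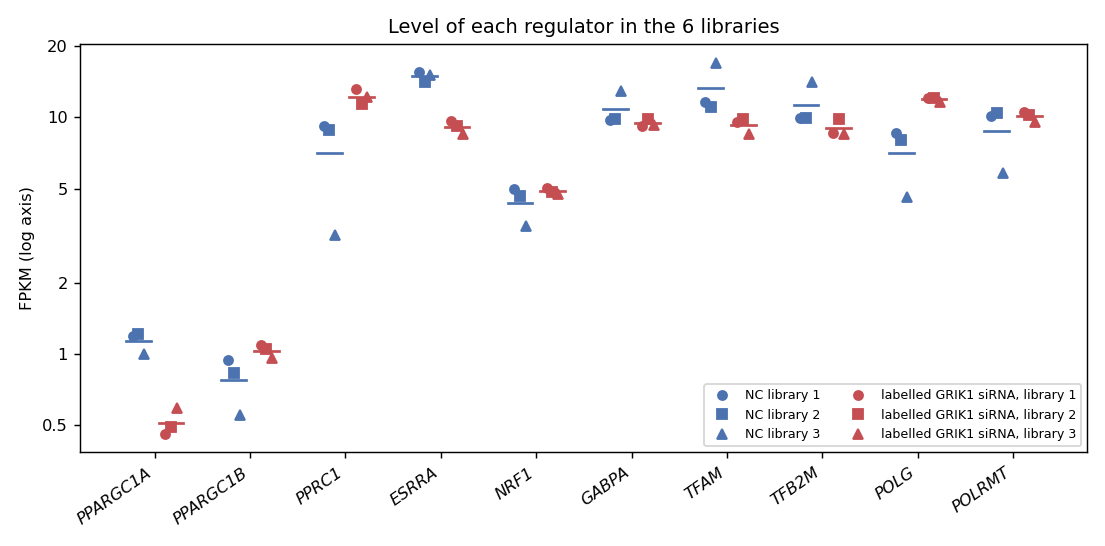
FPKM (log axis) of the 10 regulators in each library, with NC in blue, libraries labelled GRIK1 siRNA in red, a different symbol for each library number and a line at the group mean. PPARGC1A and ESRRA separate the groups with NC library 3 among its own group, whereas for PPRC1, TFAM, TFB2M, GABPA, POLG and POLRMT the triangle of NC library 3 lies away from the other NC libraries.

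PPARGC1A (ENSG00000109819) spans 23755041 to 23904089 of chromosome 4 (minus strand, GRCh38 coordinates of the table), and GENCODE 29 gives it 18 transcripts, 5 of them protein coding. Its levels were 1.19, 1.22 and 1.00 FPKM in NC libraries 1, 2 and 3 against 0.46, 0.49 and 0.59 FPKM in those labelled GRIK1 siRNA. Each NC library was well above each of the others. NC library 3 was the lowest NC library in FPKM, but on the scaled counts it was at 0.942 of the mean of NC libraries 1 and 2. These levels rested on 144, 148 and 153 counts in NC and on 62, 67 and 85 counts in the others, so PPARGC1A was also among the least deeply measured members. On the edgeR scale its log2 fold change was -1.23 (standard error 0.16, 95% interval from -1.61 to -0.85, adjusted p = 0.0261). Without NC library 3 it was -1.26 (standard error 0.15, adjusted p = 6.29e-06). When 1 of the other 5 libraries was left out instead, its log2 fold change lay between -1.35 and -1.15 and its adjusted p between 0.0677 and 0.206, and 0 of the 15870 genes were called in edgeR, while 2238 to 4434 had an unadjusted p under 0.05. Genes without a symbol overlap PPARGC1A on the opposite strand, and none of them had more than 3 counts in a library. In RNA of bulk cells, fewer cells that express a gene and less of its RNA per cell cannot be told apart.

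ESRRA (ENSG00000173153, chromosome 11, from 64305497 to 64316743, plus strand) encodes the receptor through which PGC-1α acts on many respiration genes. It had 15.48, 14.03 and 15.13 FPKM in NC libraries 1, 2 and 3 against 9.61, 9.22 and 8.54 FPKM in those labelled GRIK1 siRNA. The groups did not overlap, and the 3 NC libraries lay close together, with a mean of 14.9 ± 0.757 FPKM (SD, n = 3) against 9.12 ± 0.541 FPKM (SD, n = 3). For ESRRA the log2 fold change was -0.80 (standard error 0.13, 95% interval from -1.09 to -0.50, adjusted p = 0.0310 from edgeR). Without NC library 3 it was -0.72 (adjusted p = 5.23e-06), and with any other library left out the adjusted p was 0.0699 to 0.218. The span of ESRRA, from start to end of the gene, shares 284 bases with that of TRMT112 on the opposite strand. For TRMT112 the log2 fold change was -0.21 (adjusted p = 0.349), and -0.08 without NC library 3. Whether the counting used strand is not given in the sources used here.

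The relatives of PPARGC1A did not pass the test with all libraries. PPARGC1B (chromosome 5, from 149730298 to 149855022), which shares many partners with PGC-1α, had 0.94, 0.83 and 0.55 FPKM in NC libraries 1, 2 and 3 against 1.09, 1.05 and 0.96 FPKM in those labelled GRIK1 siRNA. Its values were all higher in the latter, but by little, and NC library 3 was the lowest. The log2 fold change of PPARGC1B was 0.35 (95% interval from -0.08 to 0.78, adjusted p = 0.276), and 0.20 without NC library 3 (adjusted p = 0.254). PPRC1 (chromosome 10, from 102132994 to 102150333), the coactivator known for its response to growth signals, had 9.18, 8.86 and 3.18 FPKM in NC libraries 1, 2 and 3. The 3 libraries labelled GRIK1 siRNA had 13.14, 11.33 and 12.17 FPKM. NC library 3 was far below the other NC libraries, at 0.400 of their mean after scaling. The log2 fold change of PPRC1 was 0.73 (95% interval from -0.01 to 1.48, adjusted p = 0.205) with that library and 0.41 (95% interval from 0.26 to 0.56, adjusted p = 0.000232) without it. Within the pair of low coactivators the order turned over. The ratio of PPARGC1A to PPARGC1B FPKM was 1.27, 1.47 and 1.82 in NC libraries 1, 2 and 3 against 0.422, 0.467 and 0.615 in those labelled GRIK1 siRNA. This ratio does not depend on library scaling, and its mean log2 value went from 0.59 ± 0.26 to -1.02 ± 0.28 (SD, n = 3 each), a difference of -1.60 (two-sided exact permutation test, p = 0.1, the smallest that 3 libraries against 3 can give). With 1 library left out in turn the difference lay between -1.76 and -1.46.

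**Figure D2:**
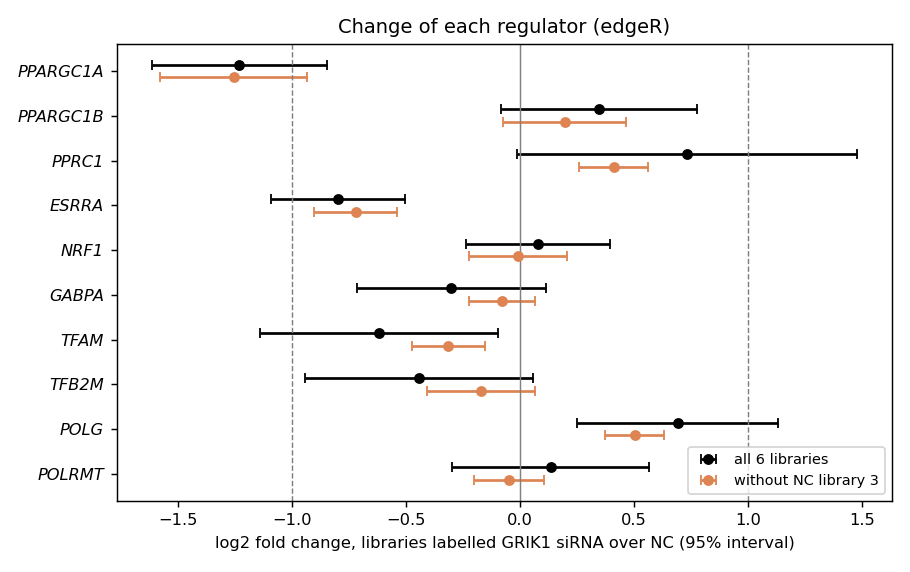
log2 fold change of each regulator with its 95% interval from edgeR, for all 6 libraries (black) and without NC library 3 (orange), with dashed lines at the fold threshold of 1. The intervals of PPARGC1A, ESRRA and TFAM lie below 0 in both fits, and that of POLG lies above 0 in both. Those of PPRC1, TFAM and POLG narrow without that library while their centres move towards 0. The intervals are not adjusted for the number of genes tested.

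The DNA-binding factors NRF1 and GABPA showed no difference past the test. NRF1 (chromosome 7, from 129611720 to 129757082) had 4.96, 4.65 and 3.48 FPKM in NC libraries 1, 2 and 3 against 5.02, 4.83 and 4.76 FPKM in the others, which overlap. For NRF1 the log2 fold change was 0.08 (95% interval from -0.24 to 0.40, adjusted p = 0.732) and -0.01 without NC library 3 (95% interval from -0.22 to 0.21), so a change larger than these bounds was not seen, while a smaller one could not be detected here. GABPA (chromosome 21, from 25734570 to 25772460) had 9.70, 9.86 and 12.87 FPKM in NC libraries 1, 2 and 3 against 9.15, 9.81 and 9.28 FPKM in the others. NC library 3 was again the distant one. The log2 fold change of GABPA was -0.30 (adjusted p = 0.321) with it and -0.08 (95% interval from -0.22 to 0.06) without it. The span of GABPA, introns included, shares 1104 bases with that of ATP5PF on the opposite strand. For ATP5PF the log2 fold change was -0.51 (adjusted p = 0.190), and -0.22 without NC library 3.

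None of the 4 proteins that act on the mitochondrial genome passed the test with all libraries. TFAM (chromosome 10, from 58385345 to 58399220) had 11.6, 11.1 and 17.03 FPKM in NC libraries 1, 2 and 3 against 9.57, 9.85 and 8.47 FPKM in those labelled GRIK1 siRNA. All 3 of the latter were lower, and NC library 3 was the highest of the 6. TFAM had a log2 fold change of -0.62 (95% interval from -1.14 to -0.10, adjusted p = 0.149) and -0.31 without NC library 3 (95% interval from -0.47 to -0.15, adjusted p = 0.00353). TFB2M (chromosome 1, from 246540561 to 246566261) had 9.90, 9.93 and 14.13 FPKM in NC libraries 1, 2 and 3 against 8.55, 9.86 and 8.49 FPKM in the others. TFB2M had a log2 fold change of -0.44 (adjusted p = 0.241) and -0.17 without NC library 3 (adjusted p = 0.264). The polymerase POLRMT (chromosome 19, from 617221 to 633537) had 10.1, 10.41 and 5.81 FPKM in NC libraries 1, 2 and 3 against 10.55, 10.21 and 9.54 FPKM in the others. With the low value of NC library 3 its log2 fold change was 0.13 (adjusted p = 0.670), and without it -0.05 (95% interval from -0.20 to 0.10). POLG (chromosome 15, from 89305198 to 89334861) had 8.55, 8.0 and 4.60 FPKM in NC libraries 1, 2 and 3 against 12.11, 12.07 and 11.63 FPKM in those labelled GRIK1 siRNA, and the groups did not overlap. The log2 fold change of POLG was 0.69 (95% interval from 0.25 to 1.13), which did not pass in edgeR (adjusted p = 0.0897). It passed in DESeq2 (0.70, adjusted p = 0.0197), in edgeR without a filter (adjusted p = 0.0357) and without NC library 3 (0.50, adjusted p = 5.41e-06). The span of FANCI, introns included, shares 12064 bases with that of POLG on the opposite strand. POLG has 7699 exonic bases, so only part of the shared bases can lie in its exons. FANCI had a log2 fold change of -0.14 (adjusted p = 0.443).

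The place of NC library 3 among the NC libraries differed between members. Relative to the mean of NC libraries 1 and 2 on the scaled counts, PPRC1, POLG, POLRMT and PPARGC1B were at 0.400, 0.630, 0.643 and 0.701 in NC library 3. NRF1 was at 0.822, PPARGC1A at 0.942 and ESRRA at 1.16, whereas GABPA, TFB2M and TFAM were at 1.49, 1.62 and 1.70. PPARGC1A and ESRRA, the members with an adjusted p under 0.05, were also the 2 for which NC library 3 lay nearest to the other NC libraries. In all, the scaled counts of the groups did not overlap for 8 of 10 members, 5 lower and 3 higher, against 38.5% of all genes tested. GABPA, PPARGC1B and TFB2M are among the 8 by narrow margins, and the FPKM values of GABPA do overlap.

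By level per length, the pair PPARGC1A and PPARGC1B lay well below the other members. In NC, ESRRA had the highest mean at 14.9 FPKM, followed by TFAM, TFB2M, GABPA, POLRMT, PPRC1, POLG and NRF1, the last at 4.36 FPKM. Each of these neighbours overlapped the next in range, so the order of neighbours is not resolved by 3 libraries. Genes further apart in the order could separate, as did ESRRA (lowest value 14.03 FPKM) and GABPA (highest value 12.87 FPKM). PPARGC1A, at 1.14 FPKM, and PPARGC1B, at 0.773 FPKM, lay below NRF1 with no overlap between neighbours. NC libraries 1 and 2 alone had the order ESRRA, TFAM, POLRMT, TFB2M, GABPA, PPRC1, POLG, NRF1, PPARGC1A and PPARGC1B, with no neighbours overlapping. In the libraries labelled GRIK1 siRNA, PPRC1 at 12.2 FPKM and POLG at 11.9 FPKM led the order with ranges that overlapped, POLRMT followed at 10.1 FPKM, and ESRRA was sixth at 9.12 FPKM among neighbours whose ranges overlapped. PPARGC1A was last there, at 0.513 FPKM, below PPARGC1B at 1.03 FPKM.

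Across the 6 libraries, the tested genes with the profile most like that of PPARGC1A were ENSG00000286975, which has no symbol in the table, EIF4EBP3, ENKUR, PTGES and PLPP3. Likeness was the root mean square difference of log2 CPM values, each centred on its gene's mean, and lay between 0.098 and 0.124 for these 5 genes. ESRRA was the nearest member, with a difference of 0.287 and rank 185 among the tested genes, followed by TFAM with 0.463 and rank 1791. PPRC1 was the farthest member, with 1.12. PTGES, the inducible prostaglandin E synthase, had 739, 729 and 740 normalized CPM in NC libraries 1, 2 and 3 against 310, 302 and 304 in the others. The counts of EIF4EBP3 are uncertain, since the readthrough gene ANKHD1-EIF4EBP3 overlaps it on the same strand and SRA1 on the other.

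Upstream of the coactivators, 1 of 26 tested regulators of PGC-1 was called, against 1.41% of all genes. MTOR, the kinase that couples nutrients to growth, had 70.7, 68.2 and 40.8 normalized CPM in NC libraries 1, 2 and 3 against 128, 122 and 114 in those labelled GRIK1 siRNA. All 3 of the latter were higher, and the NC level of library 3 was the lowest. MTOR had a log2 fold change of 1.02 (adjusted p = 0.0497, standard error 0.21), and 0.81 without NC library 3, which is under the fold threshold. Leaving out each of the other 5 libraries in turn gave MTOR an adjusted p of 0.0737 to 0.234. PRKAA1, a catalytic subunit of AMPK, had 164, 169 and 173 normalized CPM in NC and 124, 123 and 126 in the others, with no overlap and little spread. PRKAA1 had a log2 fold change of -0.44 (adjusted p = 0.0679), and -0.42 without NC library 3 (adjusted p = 3.88e-06). RNF34, a ubiquitin ligase for PGC-1α, had a log2 fold change of -0.49 (adjusted p = 0.0623) and FBXW7, another ligase subunit, 0.56 (adjusted p = 0.0862). The median of the 26 genes was 0.04, against -0.02 for all genes tested. With NC library 3 left out, 4 of them had an adjusted p under 0.05 in the upward and 8 in the downward direction, where 16.9% and 18.3% of all genes did.

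None of the 16 tested nuclear receptors and other partners was called or had an adjusted p under 0.05 in edgeR. In that test 3 of them had an unadjusted p under 0.05, against 3987 of all 15870 genes. In DESeq2 1 of them had an adjusted p under 0.05, against 1676 of all 15870 genes. Their median log2 fold change was 0.28, with 13 of 16 above 0, where 7712 of all 15870 genes were above 0. NCOA1, a nuclear receptor coactivator, had 0.52 (adjusted p = 0.0744) and LPIN1, a lipid phosphatase that binds PGC-1α, 0.45 (adjusted p = 0.124). PPARG, the receptor that gave the coactivators their name, had -0.77 (adjusted p = 0.121), and CREBBP, an acetyltransferase, had 0.53 (adjusted p = 0.214). Without NC library 3, 8 of the 16 had an adjusted p under 0.05 in the upward (16.9% of all genes) and 2 in the downward direction (18.3%). PPARG was then at -0.48 (adjusted p = 0.0320) and CREBBP at 0.28 (adjusted p = 0.0198).

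**Figure D3:**
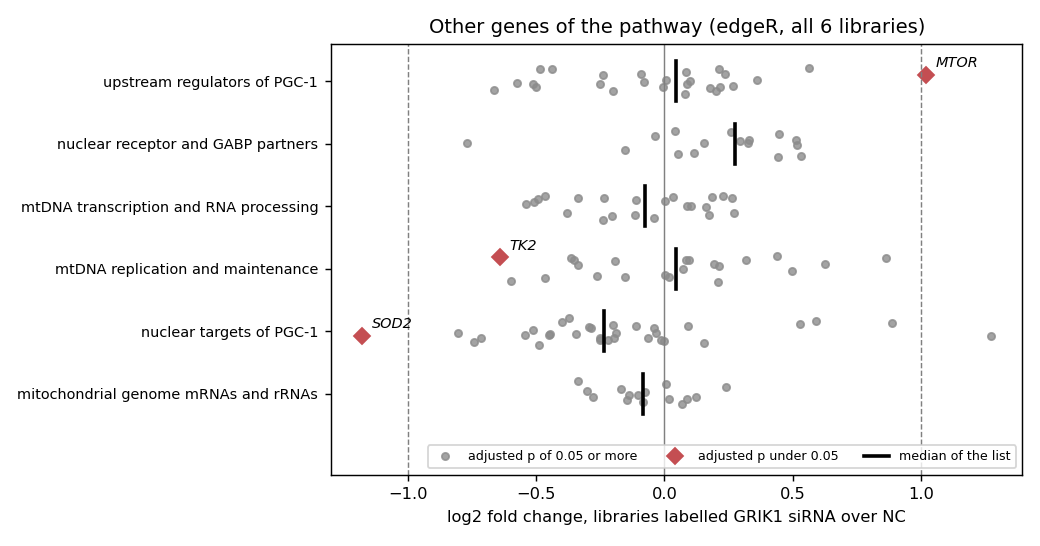
log2 fold change of each tested gene in 6 lists of the pathway (edgeR, all 6 libraries), with red diamonds for an adjusted p under 0.05, black bars at the list medians and dashed lines at the fold threshold of 1. MTOR, TK2 and SOD2 are the 3 genes with an adjusted p under 0.05, and the medians lie between -0.24 and 0.28.

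Among genes for the transcription of mitochondrial DNA and the processing of its RNA, 0 of 22 tested had an adjusted p under 0.05 in edgeR. In DESeq2 it was also 0, against 1676 of all 15870 genes. In edgeR 4 of the 22 had an unadjusted p under 0.05, against 3987 of all 15870 genes. The median log2 fold change was -0.08, and 0.05 without NC library 3, when 3 had an adjusted p under 0.05 in the upward and 4 in the downward direction (16.9% and 18.3% of all genes). The lowest p-values belonged to GRSF1, an RNA-binding protein of mitochondrial RNA granules (-0.51, adjusted p = 0.105), and TFB1M, the methyltransferase relative of TFB2M (-0.54, adjusted p = 0.129). FASTKD1 (-0.34, adjusted p = 0.130) and MTERF4 (-0.49, adjusted p = 0.155) followed. In normalized CPM each of these 4 was lower in every library labelled GRIK1 siRNA than in every NC library, but they were chosen for their p-values. In the whole list the groups did not overlap for 5 lower and 1 higher gene of 22, against 38.5% of all genes. In the list of mitochondrial DNA replication and maintenance, 1 of 22 had an adjusted p under 0.05, against 3.09% of all genes, and 0 were called in edgeR. At an unadjusted p under 0.05 in edgeR there were 8, against 3987 of all 15870 genes. At an adjusted p under 0.05 in DESeq2 there were 4, against 1676 of all 15870 genes. The 1 gene with an adjusted p under 0.05 in edgeR was TK2, the mitochondrial thymidine kinase. TK2 was at 46.7, 52.2 and 60.0 normalized CPM in NC libraries 1, 2 and 3 against 33.3, 34.97 and 33.7 in the others. TK2 had a log2 fold change of -0.64 (adjusted p = 0.0489, standard error 0.13), and -0.54 without NC library 3 (adjusted p = 5.21e-05). Leaving out each of the other 5 in turn gave TK2 an adjusted p of 0.0699 to 0.252. DNA2, a helicase and nuclease of nucleus and mitochondrion, had 0.86 (adjusted p = 0.067) and APEX1, an endonuclease of base excision repair, -0.60 (adjusted p = 0.0748). In this list 13 of 22 were above 0, where 7712 of all 15870 genes were. Its median was 0.05, and 0.09 without NC library 3. Without it, 7 had an adjusted p under 0.05 in the upward and 3 in the downward direction (16.9% and 18.3% of all genes).

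Of 32 tested nuclear genes that PGC-1 is known to raise, 1 was called, against 1.41% of all genes. A log2 fold change above 0 was found for 6 of the 32, where 7712 of all 15870 genes were above 0. The log2 fold changes of the list ran from -1.18 to 1.27. In this list the groups did not overlap for 9 lower and 4 higher genes, against 38.5% of all genes in either direction. The called gene was SOD2, the superoxide dismutase of the mitochondrial matrix, with 2622, 2732 and 4462 normalized CPM in NC libraries 1, 2 and 3 against 1409, 1466 and 1468 in those labelled GRIK1 siRNA. SOD2 had a log2 fold change of -1.18 (adjusted p = 0.0444, standard error 0.23), and -0.89 without NC library 3 (adjusted p = 2.06e-10), which is under the fold threshold. Leaving out each of the other 5 libraries in turn gave SOD2 an adjusted p of 0.0697 to 0.236. The span of WTAP, introns included, shares 30735 bases with that of SOD2 on the opposite strand. SOD2 has 18144 exonic bases, so only part of the shared bases can lie in its exons. WTAP had a log2 fold change of -0.99 (adjusted p = 0.0726), and -0.65 without NC library 3. CS, the citrate synthase often used as a measure of mitochondrial content, had 133, 138 and 124 normalized CPM in NC libraries 1, 2 and 3 against 101, 96.4 and 92.2 in the others. The groups did not overlap, and the log2 fold change of CS was -0.45 (adjusted p = 0.074) with NC library 3 and -0.49 (adjusted p = 3.09e-06) without it. UQCRFS1, an iron-sulfur protein of complex III, had -0.80 (adjusted p = 0.1001), and -0.48 (adjusted p = 6.29e-05) without NC library 3. The uncoupling protein UCP3 had 0.89 (adjusted p = 0.138). The list had a median of -0.24, where that of all genes tested was -0.02. With NC library 3 left out these medians were -0.11 and 0.01. In the test without that library, 12 of the 32 genes had an adjusted p under 0.05 in the downward and 2 in the upward direction, where 18.3% and 16.9% of all genes did.

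The transcripts of the mitochondrial genome, on which TFAM, TFB2M, POLRMT and POLG act, took about the same share of the reads in both groups. The 13 mRNAs and 2 rRNAs held 5.54%, 5.68% and 4.16% of the counts in NC libraries 1, 2 and 3, against 4.89%, 5.22% and 5.25% in those labelled GRIK1 siRNA. NC library 3 was the lowest and NC libraries 1 and 2 the highest of the 6. The means were 5.12% ± 0.840 and 5.12% ± 0.198 (SD, n = 3 each; two-sided exact permutation test, p = 1). With it left out the difference was -0.487 percentage points, with each library labelled GRIK1 siRNA below both NC libraries (exact permutation p = 0.2, the smallest that 3 against 2 can give). By gene, 0 of the 15 had an adjusted p under 0.05 in edgeR or DESeq2. At an unadjusted p under 0.05 in edgeR there were 0, against 3987 of all 15870 genes. MT-ND3 (-0.30, adjusted p = 0.224), MT-CYB (-0.28, adjusted p = 0.263), MT-RNR2 (-0.34, adjusted p = 0.310) and MT-CO3 (-0.15, adjusted p = 0.537) had the smallest p-values in edgeR. In the test without that library, 10 of the 15 had an adjusted p under 0.05, each in the downward direction (18.3% of all genes). The median log2 fold change was then -0.18, with MT-ND3 at -0.20 and MT-RNR2 at -0.18.

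**Figure D4:**
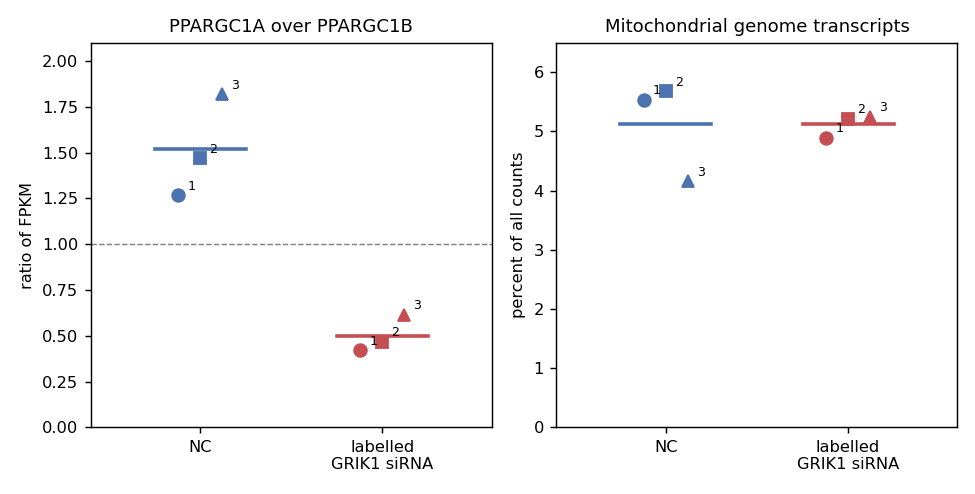
Left, ratio of PPARGC1A to PPARGC1B FPKM in each library, and right, percent of all counts on the 13 mRNAs and 2 rRNAs of the mitochondrial genome, with library numbers beside the points, lines at the group means and both axes from 0. The ratio is above 1 (dashed) in each NC library and below 1 in each library labelled GRIK1 siRNA, while the mitochondrial shares overlap because NC library 3 lies at 4.16%.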

How the data were processed

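The authors deposited 1 table with whole-number read counts per gene, not normalized, and FPKM values. Per the labels' processing notes, cutadapt 1.9.1, HISAT2, HTSeq and GRCh38 were used; other versions, the annotation and the strand setting are not given in the sources used here. Each deposited FPKM equals count over exonic size and total count (100% of values within 0.006). No library was pooled, and 0 value columns were left unassigned. Libraries were grouped by title, and replicate numbers were not used to pair them in the main test.

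Counts were tested, for genes whose mean reached 0.5 FPKM, with the quasi-likelihood test of edgeR 4.0.16 (R 4.3.3), with TMM scaling, no block and Benjamini-Hochberg adjustment over all genes tested. The fold threshold was an absolute log2 fold change of 1. Standard errors were derived from the F statistic. Normalized CPM are TMM-scaled, and log2 CPM used a prior count of 2. Single values were compared by exact permutation in scipy 1.17.1. The fits were tested on simulated data. Total counts of 11099909 to 14006968 per library set the precision.

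The members and lists were chosen with earlier results of these data known. FASTKD4 was matched as TBRG4. Beside the members, the text names in each list the genes called and those with the smallest p-values, up to 4, and the 5 genes nearest to PPARGC1A in profile. The alternatives were RLE scaling, total counts, DESeq2 1.42.0, limma-trend (limma 3.58.1), other filters, the replicate number as a block, leaving out each library and no fold threshold.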

Additional observations from a re-analysis of the deposited data

How the results depend on the processing

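PPARGC1A was the 1 member called under RLE scaling, total counts only, DESeq2, no filter, filterByExpr and without NC library 3. The count of members called was 0 in limma-trend on log2(FPKM + 1) and on log2(FPKM + 0.1), where PPARGC1A had adjusted p-values of 0.0714 and 0.0819, at a mean FPKM of at least 1, which left PPARGC1A and PPARGC1B out, and with the replicate block. With adjusted p alone it was 2, and 5 when NC library 3 was also left out, an alternative chosen after seeing the data. Leaving out 1 library in turn gave 0 to 1. Of the genes in the pathway lists, 2 were called in the main test, 1 with total counts only, in both limma fits and at a mean FPKM of at least 1, 0 with the replicate block, and 0 with any 1 library left out, NC library 3 included. With adjusted p alone and without NC library 3, 63 of the 133 tested passed, where 35.2% of all genes did. Over all genes, 224 were called, 498 in DESeq2, 664 without a filter, 113 and 125 in the limma fits, and 0 to 491 with 1 library left out. The replicate block gave 0 called genes in edgeR, with 3324 at an unadjusted p under 0.05. The deviations of same-numbered libraries correlated at -0.07, 0.044 and -0.043, against at most 0.084 between the groups for libraries of different number. These 3 values cannot show whether the libraries were handled in pairs. The block left the PPARGC1A to PPARGC1B difference at -1.60 (exact sign-flip p = 0.25, the smallest 3 pairs allow). With 1 library left out, the log2 fold change of NRF1 was -0.0072 to 0.1513 and that of POLRMT -0.0478 to 0.2537, in each case below 0 without NC library 3 only. The difference in mitochondrial share was -0.00382 percentage points. It became 0.152 without the rRNAs, and -0.487 to 0.274 with 1 library left out, so its sign is not set by these data. Of the members and of the genes named in the pathway lists, which were the genes recomputed under each of these alternatives, no other changed direction. The cause of these shifts was not tested.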

Other observations

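Several genes that PGC-1α is known for in muscle, liver and brown fat were at or near the floor in these cells and were not tested, at mean levels under 0.5 FPKM over the 6 libraries. FGF21, a secreted hormone, had 0 counts in each library. PDK4, which restrains pyruvate oxidation, had a mean of 0.313 FPKM in NC and 0.323 FPKM in the group labelled GRIK1 siRNA. The uncoupling protein UCP2 had 0.403 and 0.330 FPKM in this order. FNDC5, the irisin precursor, had 0.0433 and 0.177 FPKM, and PERM1, a muscle regulator induced by PGC-1 and ERR, 0.0433 and 0.380 FPKM. The receptors ESRRG and ESRRB, relatives of ESRRA, had means of 0.347 and 0.0517 FPKM over the 6 libraries, whereas the lowest ESRRA value in any library was 8.54 FPKM.

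Summed markers of endothelium did not exceed 0.08 FPKM in any library, and summed markers of neurons (1.91 to 2.81 FPKM in NC, 2.47 to 2.62 FPKM in the others) and of epithelium (1.67 to 2.56 and 2.05 to 3.03 FPKM) overlapped between the groups.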
